A study of Homo sapiens with 6 samples.

Results

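Chemokines and interleukins are small secreted proteins by which cells call in and instruct leukocytes, and 74 genes for such ligands were followed in PC3, an established human prostate cancer line, after miR-130a had been supplied. The members are the genes whose single platform symbol is a CXC, CC, CX3C or C chemokine, an interleukin numbered 2 or higher (without IL18, IL33 and IL36G), CSF1, CSF3 or LIF, each read by 1 row of the array, out of 22465 genes measured. IL1A and IL1B lie outside this definition. One row carrying both the CCL14 and CCL15 symbols was left out, and CSF2, IL9 and CCL13 were not analysed here. Total RNA of 6 PC3 cultures was measured on 6 Affymetrix transcriptome arrays: 3 cultures transiently transfected with a synthetic miR-130a precursor and 3 with a negative control precursor, from independent experiments. All 6 cultures were PC3 in serum-containing medium, all were transfected, and the labels used here give neither the dose nor the time after transfection. A single line without stroma or immune cells limits the arrays to what the tumour cells transcribe, and no untransfected culture was analysed here.

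Chemokines bind G protein-coupled receptors on leukocytes and steer their migration. In the CXC class, members with a glutamate-leucine-arginine (ELR) motif attract neutrophils and promote vessel growth, whereas CXCL9, CXCL10 and CXCL11 are induced by interferon and attract T cells. Interleukins and colony-stimulating factors signal through receptor chains that are shared within families: IL-6, IL-11 and LIF use gp130, and IL-2, IL-7, IL-15 and IL-21 use the common gamma chain. Many of these genes are switched on by the transcription factor NF-kB, which PC3 cells are known to keep active, and many of their messenger RNAs are short-lived because AU-rich elements recruit decay factors. MicroRNAs such as miR-130a lower the messenger RNAs that pair with their seed.

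The promoters of the ELR chemokines and of IL6 are shown first because the letters of an NF-kB type site stand at a like distance from the start in genes that passed the test and in genes that did not. RefSeq promoters of 300 bases (build GRCh38.p14, 250 bases before and 50 after the first listed start) were held for 51 of the 74 members. For 23, CSF1 and LIF among them, there was no entry. The promoters were searched on both strands for GGANTTTCC, where N is any base, a motif chosen with the promoters in view. Each line gives 30 bases upstream of the start, 5′ to 3′ on the gene's strand, with the matched letters in capitals.
CXCL1, chr4:73869305-73869334, plus strand: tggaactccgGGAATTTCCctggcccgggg
CXCL8, chr4:73740468-73740497, plus strand: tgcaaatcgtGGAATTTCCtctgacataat
CXCL2, chr4:74099253-74099282, minus strand: tggagctccgGGAATTTCCctggcccggga
CXCL3, chr4:74038748-74038777, minus strand: tggagctccgGGAATTTCCctggcccggcc
CXCL5, chr4:73998748-73998777, minus strand: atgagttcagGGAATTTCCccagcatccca
CXCL6, chr4:73836579-73836608, plus strand: ctgagttcagGGAATTTCCccagcatccca
IL6, chr7:22727118-22727147, plus strand: atcaaatgtgGGATTTTCCcatgagtctca

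The first capital stood 78 bases before the start in CXCL1 and CXCL3, 77 in CXCL2, 91 in CXCL8, 90 in CXCL5, 89 in CXCL6 and 72 in IL6. The windows of CXCL1 and CXCL2 were identical at 28 of 30 bases and those of CXCL5 and CXCL6 at 29 of 30, against 17 of 30 between CXCL1 and CXCL8. GGANTTTCC occurred in 10 of the 51 member promoters (19.6%), against 1.64% of the promoters of all 27305 genes in the table. Because the motif was chosen with the promoters in view, this share is not a test of enrichment. Some of the ELR windows are near copies, so the 10 are not independent. Of these 10 members, 3 passed the test (CXCL1, CXCL8 and IL6) and 7 did not, the other 4 ELR chemokines, CXCL10, CXCL11 and IL32. Promoters were held for 5 of the members that passed, so 3 of those 5 held the motif. The promoters of CCL20 and IL37, the others of those 5, held no match, which says only that these letters are not in those windows. A match describes letters and does not show that a factor binds there.

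The values are log2 expression values, and a difference is the miR-130a mean minus the negative control mean on that scale. The array medians lay between 4.964 and 5.084, and the third negative control array stood apart: it correlated with the other controls at r = 0.992 and 0.9923, against 0.9958 between those 2. It was the highest control in 56 of the 74 members (75.7%), against 51.0% of all genes, so calls that differ without it are given beside the results. Of 5 epithelial markers, the keratin gene KRT18 rose (9.99 ± 0.04 with miR-130a and 9.61 ± 0.10 in controls; SD, n = 3 each; adjusted p = 0.018, limma) and 4 did not pass. KRT8, CDH1 and EPCAM differed by 0.16, 0.29 and -0.03, and KRT19 by -0.18. All but EPCAM had an unadjusted p below 0.05 (limma), and their part in the results below was not tested. The leukocyte marker PTPRC read 2.72 ± 0.05 with miR-130a and 2.72 ± 0.07 in controls, the lowest of the 11 measured. Of these 11, 6 had a mean above 4.995, the median of all rows, and 5 did not. CD79A and NKG7 were among the 6, at 6.47 and 6.38. Of 11 measured leukocyte markers, CD68, a lysosomal protein that cells other than macrophages also make, fell by 0.45, LYZ rose by 0.46 and 9 did not pass. Their summed linear level was 1200 to 1220 on the miR-130a arrays and 1470 to 1580 on the control arrays, or, without CD68, 353 to 382 on the miR-130a arrays and 337 to 403 on the control arrays. Their mean log2 value was 5.15 to 5.20 on the miR-130a arrays and 5.09 to 5.29 on the control arrays, none was listed at 0, and their part in the results below was not tested. None of 5 fibroblast markers passed, and of 5 endothelial markers KDR rose by 0.69. The arrays read bulk RNA of a single line, so a change in every cell and a change in part of the cells cannot be told apart. The row of MIR130A (difference 0.30, SE 0.119, adjusted p = 0.265, limma) did not pass, and whether it reads the transfected precursor is unknown.

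With miR-130a, 5 of the 74 ligand genes rose and 1 fell at an adjusted p below 0.05 (limma, Benjamini-Hochberg over all 22465 genes). CCL20, CXCL1, CXCL8, IL6 and CSF1 rose, and IL37 fell. That is 8.11% of members, against a background of 4.23% of all genes, with 6.76% of members higher, against a background of 2.48% of all genes, and 1.35% lower, against a background of 1.74%. Over all genes 558 rose and 392 fell, or 384 and 136 after each array was centred on its median. The median difference was 0.002 over the members and -0.014 over all genes. At an unadjusted p below 0.05 stood 13 members (17.6%; background 16.5%). The arms did not overlap in 15 members (20.3%; background 23.6%), 12 of them higher (background 11.7% of genes) and 3 lower (background 11.9%).

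**Figure D1:**
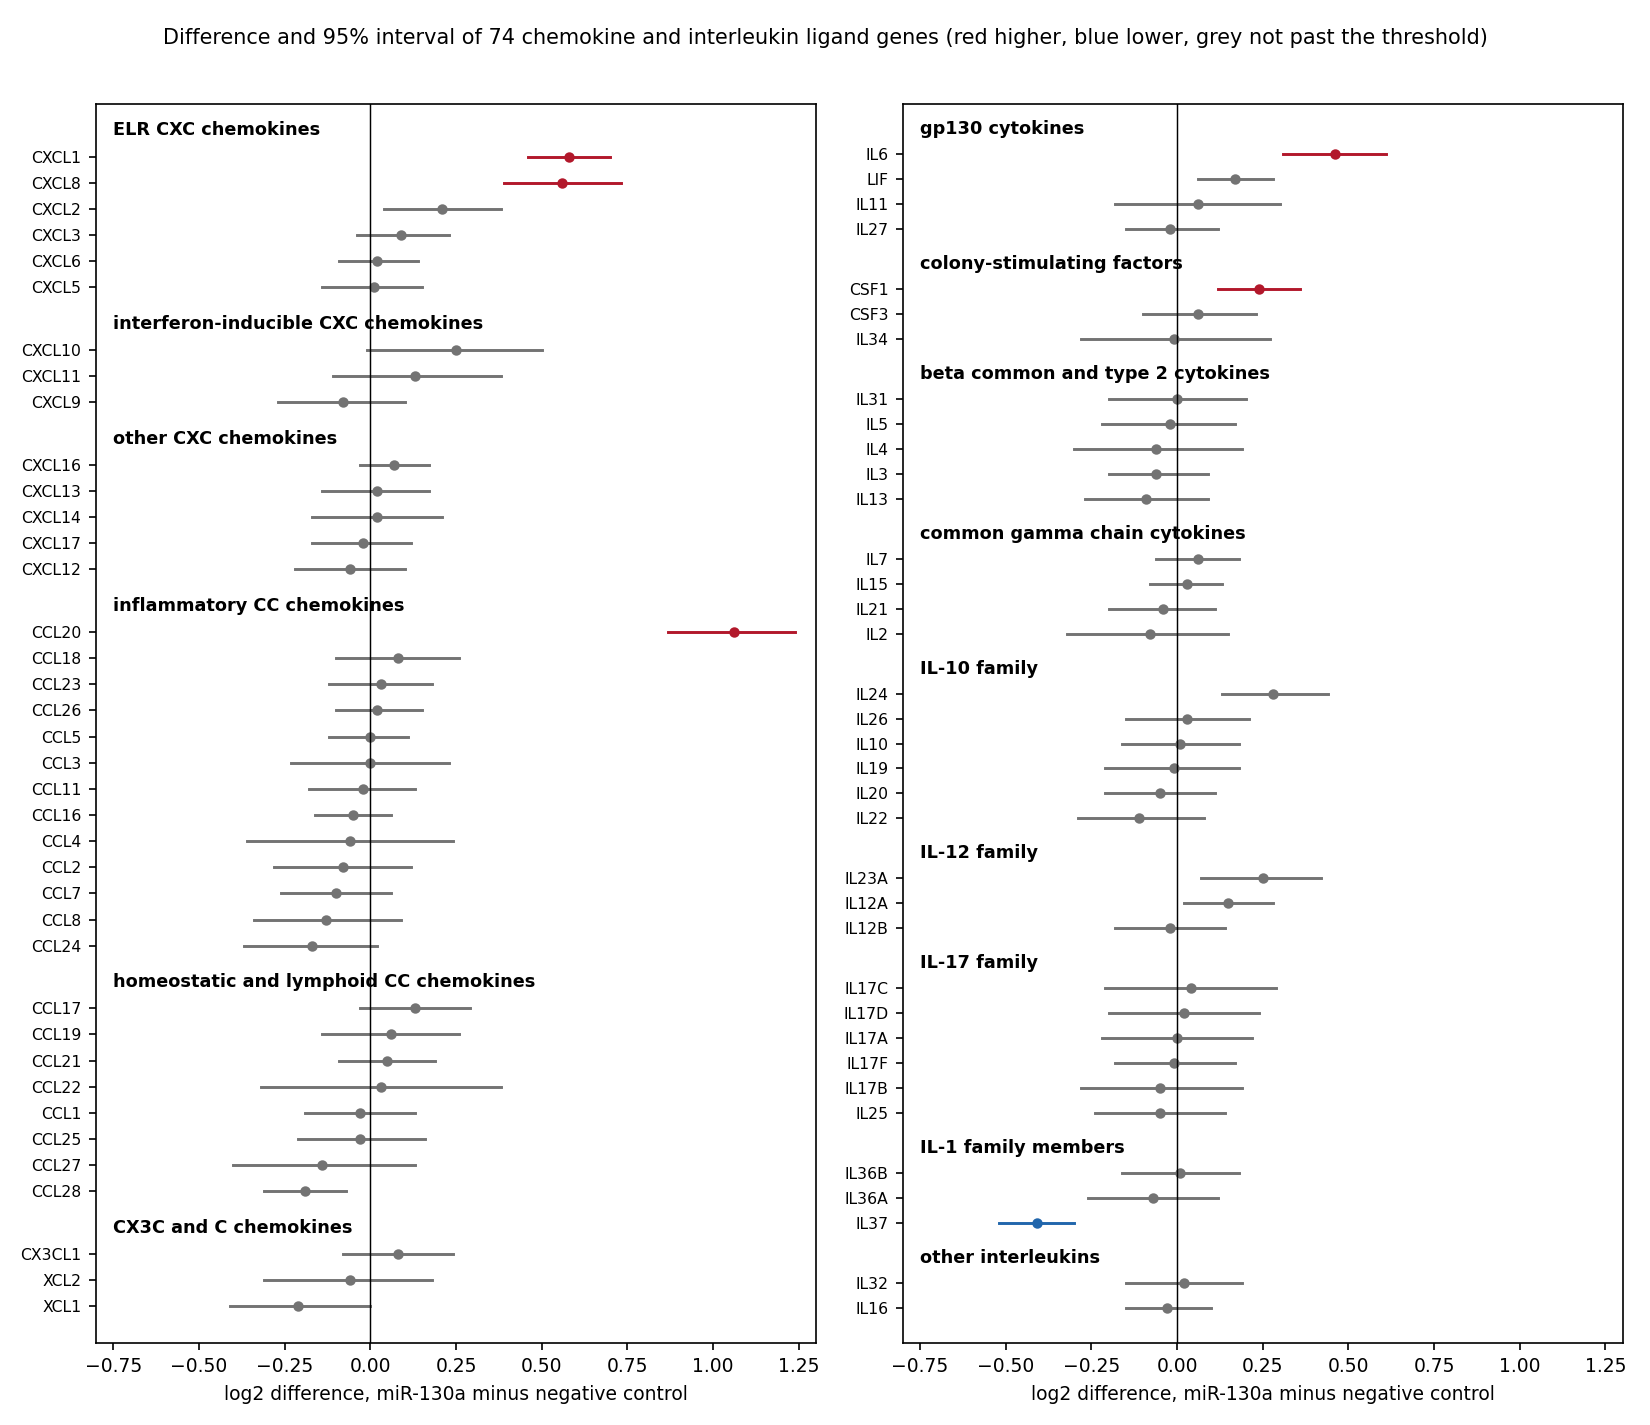
Log2 difference, miR-130a minus negative control, of each of the 74 genes (points) with its 95% interval from limma (lines), grouped by role. The 5 red genes passed the test upwards, IL37 in blue passed downwards, and the 68 grey genes lay between -0.21 and 0.28.

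For the 68 genes that did not pass, the values bound the change in array signal. The 95% intervals of all 68 lay within 1.5-fold in either direction. Where a row reads mostly background, this bounds the background and not the transcript. Of the 74 rows, 33 had a mean at or below 4.995, the median of all rows, and none of these passed, where 0.784% of all such genes did. The 6 genes that passed were among the 41 members above it, where 5.59% of all such genes passed. Detection calls were not used here, so which genes were transcribed at all is unknown, above this median as well as below it. Of the 11 measured leukocyte markers, 6 had means above it, CD79A at 6.47 among them, and 5 did not. Without the third negative control array, 9 members passed (12.2%), 7 higher and 2 lower, while the share over all genes was 10.0%.

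Among the CC chemokines, CCL20 rose 2.08-fold, and none of the other 20 members of that class passed the test. CCL20 attracts dendritic cells, Th17 cells and B cells through its receptor CCR6. It read 7.68, 7.56 and 7.75 on the miR-130a arrays, against 6.47, 6.71 and 6.64 on the negative control arrays. The lowest miR-130a value lay well above the highest control. The difference was 1.06 (SE 0.0795, 95% interval 0.87 to 1.24, adjusted p = 0.00105, limma), the largest among the 74 members. It lay between 0.99 and 1.11 with any 1 array left out, at adjusted p = 0.00422 to 0.00905 (limma).

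The other 12 inflammatory CC chemokines differed by -0.17 to 0.08. CCL2, which draws in monocytes, read 4.24, 4.21 and 4.25 with miR-130a and 4.25, 4.17 and 4.50 in controls. CCL5, which draws in T cells and monocytes, read 5.24, 5.34 and 5.32 with miR-130a and 5.27, 5.32 and 5.33 in controls. The arms of both genes overlapped. The 11 CC members on chromosome 17, where most CC genes lie in clusters, all differed by -0.13 to 0.08; CCL20 lies on chromosome 2. CCL3 and CCL4 have near-identical copies, so their values are uncertain.

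Of 8 homeostatic and lymphoid CC chemokines none passed. CCL28, which epithelia secrete to attract plasma cells, came nearest, at 6.05, 6.02 and 6.05 with miR-130a and 6.22, 6.28 and 6.17 in controls. Its arms did not overlap, with every miR-130a value below every control value (difference -0.19, SE 0.0516, adjusted p = 0.102, limma), and it passed without the third negative control array (difference -0.215, adjusted p = 0.0265, limma). CCL25, the thymus and gut chemokine, differed by -0.03 (95% interval -0.21 to 0.16).

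**Figure D2:**
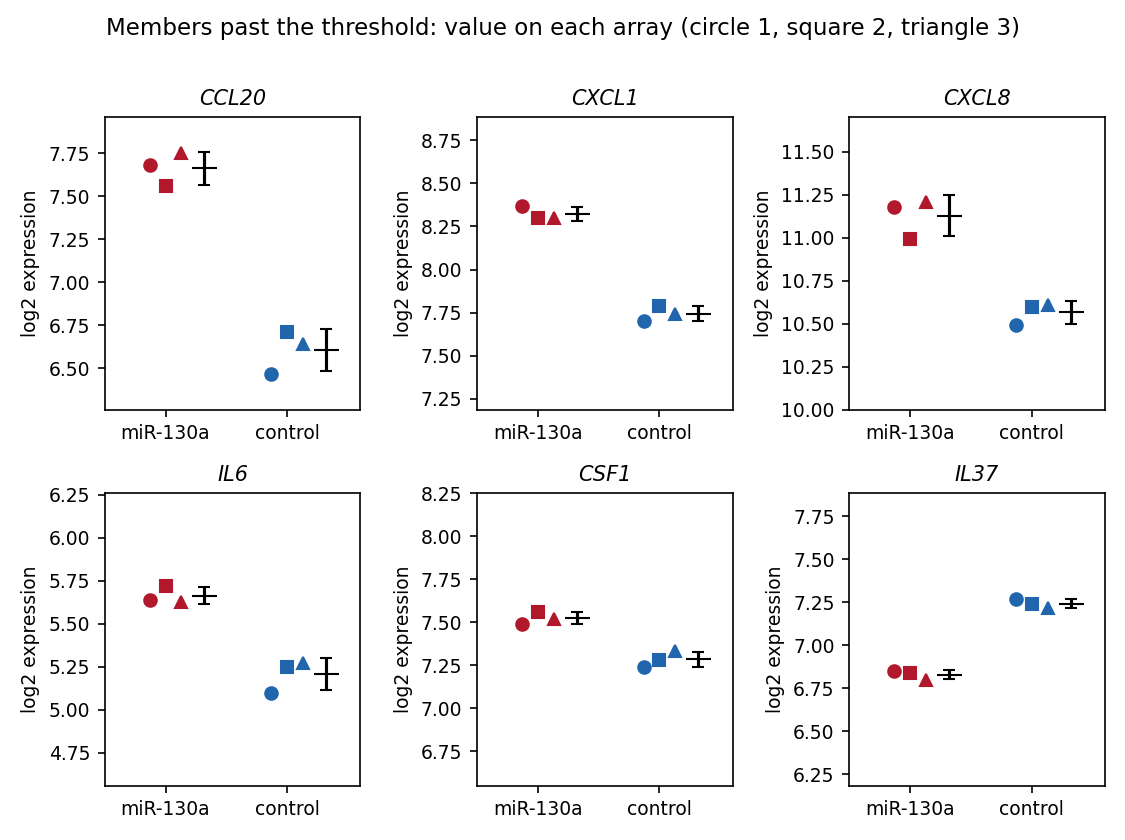
Log2 expression on each array (circle, array 1; square, array 2; triangle, array 3) of the 6 genes past the threshold, miR-130a left and negative control right, with mean and SD (n = 3) as a black bar; every panel spans the same height. The arms are apart in all 6 panels, with miR-130a above control except in IL37.

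The 6 ELR CXC chemokines among the members, neutrophil attractants that lie together in a cluster on chromosome 4, did not all pass. CXCL1 and CXCL8 rose and the other 4 differed by 0.01 to 0.21. CXCL1 read 8.37, 8.30 and 8.30 on the miR-130a arrays, against 7.70, 7.79 and 7.74 on the control arrays. All 3 miR-130a values lay above all controls, with a spread within each arm that was small beside the gap (difference 0.58, SE 0.0516, 95% interval 0.46 to 0.70, adjusted p = 0.00205, limma). CXCL8, also known as interleukin 8, a neutrophil attractant induced by NF-kB, read 11.18, 10.99 and 11.21 with miR-130a, against 10.49, 10.60 and 10.61 in controls. The second miR-130a array was the lowest of its arm and still above every control (difference 0.56, SE 0.0731, 95% interval 0.39 to 0.73, 1.47-fold, adjusted p = 0.00768, limma).

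CXCL2 read 7.77, 7.77 and 7.80 with miR-130a, against 7.41, 7.65 and 7.65 in controls. The arms did not overlap, but the first control lay well below the other two and the gene did not pass (difference 0.21, SE 0.073, 95% interval 0.04 to 0.38, adjusted p = 0.192, limma). Without that control the difference was 0.13 (adjusted p = 0.369, limma), and without the third control 0.251 (adjusted p = 0.0862, limma). With array weights CXCL2 passed (difference 0.294, adjusted p = 0.0163, limma), in a fit that called 3215 of all 22465 genes. CXCL3 read 5.83, 5.75 and 5.76 with miR-130a and 5.63, 5.66 and 5.78 in controls, with overlap (95% interval -0.04 to 0.23). CXCL6 read 6.67, 6.68 and 6.73 with miR-130a and 6.69, 6.68 and 6.63 in controls (95% interval -0.09 to 0.14). CXCL5 read 4.66, 4.54 and 4.64 with miR-130a and 4.55, 4.58 and 4.70 in controls (95% interval -0.14 to 0.15). The upper limits of CXCL3, CXCL5 and CXCL6 lay below the lower limits of CXCL1 and CXCL8, but the difference between genes was not itself tested. All of these genes carry GGAATTTCC in the promoter windows printed above, and its part in the values was not tested. CXCL1, CXCL2 and CXCL3 are close paralogs, so probes may read more than 1 of them and their separate values are uncertain.

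**Figure D3:**
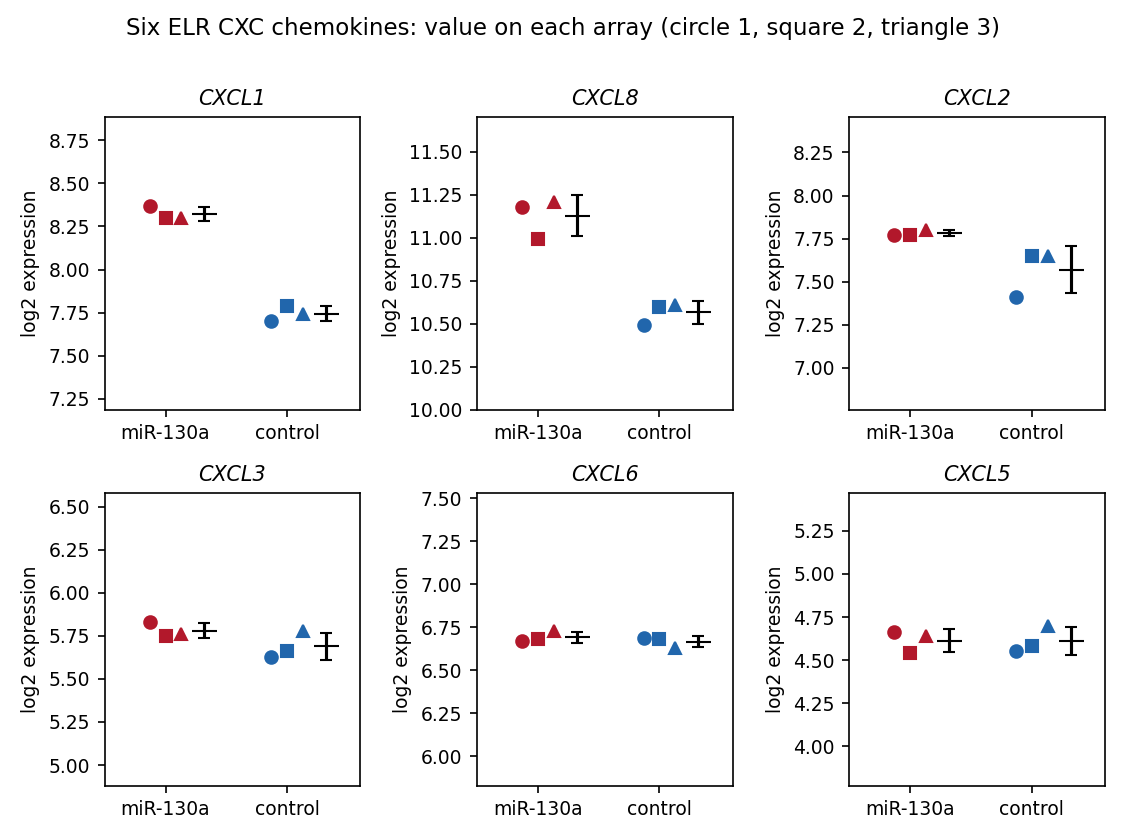
Log2 expression on each array of the 6 ELR CXC chemokines among the members, miR-130a left and negative control right. A black bar gives mean and SD (n = 3), symbols mark arrays 1 to 3, and every panel spans the same height. CXCL1 and CXCL8 separate widely, CXCL2 narrowly, and CXCL3, CXCL6 and CXCL5 overlap.

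None of the 3 interferon-inducible CXC chemokines passed. Their differences lay between -0.08 and 0.25, and the top of the range was CXCL10, at 5.62, 5.27 and 5.19 with miR-130a and 5.07, 5.07 and 5.20 in controls. Its first miR-130a array lay above the rest and the third below the highest control (95% interval -0.01 to 0.50, adjusted p = 0.321, limma). Among the 5 other CXC chemokines the differences were -0.06 to 0.07. CXCL16, a membrane-anchored chemokine, read 7.15, 7.17 and 7.16 with miR-130a and 7.09 on each control array. These arms did not overlap, yet the gap was small (difference 0.07, SE 0.045, adjusted p = 0.552, limma). CX3CL1, the other membrane-anchored chemokine, differed by 0.08 (95% interval -0.08 to 0.24). XCL1, a T cell attractant with a near-identical copy in XCL2, was dim and differed by -0.21 (SE 0.089, adjusted p = 0.301, limma), or by -0.127 without the third control array.

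In the gp130 group IL6 rose and the other 3 members did not pass. IL6, the main inducer of the acute-phase response and of STAT3 signalling, read 5.64, 5.72 and 5.63 with miR-130a, against 5.10, 5.25 and 5.27 in controls. The arms were apart, with the first control the lowest (difference 0.46, SE 0.0639, 95% interval 0.31 to 0.61, 1.37-fold, adjusted p = 0.00971, limma). It narrowly missed the threshold without any 1 of the miR-130a arrays (adjusted p = 0.0547, 0.0527 and 0.0527 without arrays 1, 2 and 3, limma). The IL6 mean over the 6 arrays was 5.43, near those of the leukocyte markers CD3E (5.28) and ITGAM (5.47). How much of the IL6 signal is background is unknown. LIF, which signals through LIFR and gp130, read 8.87, 8.85 and 8.82 with miR-130a and 8.66, 8.71 and 8.65 in controls. Its arms did not overlap (difference 0.17, SE 0.0484, adjusted p = 0.11, limma). LIF passed with trended and robust eBayes and with array weights (adjusted p = 0.0405 and 0.0205, limma). Those fits called 1449 and 3215 of all 22465 genes. IL11 read 7.09, 7.08 and 7.14 with miR-130a, within the control values of 6.99, 6.85 and 7.29, of which the third was the highest of the 6. IL27 differed by -0.02 (95% interval -0.15 to 0.12).

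CSF1, the growth factor of monocytes and macrophages, rose by little. It read 7.49, 7.56 and 7.52 with miR-130a, against 7.24, 7.28 and 7.33 in controls, without overlap (difference 0.24, SE 0.0512, 1.18-fold, adjusted p = 0.0444, limma). The call did not hold with most arrays left out. The adjusted p (limma) was 0.166, 0.203 and 0.197 without miR-130a arrays 1, 2 and 3, 0.155 and 0.0894 without negative control arrays 1 and 2, and 0.0171 without the third control. Centring each array on its median gave 0.0532 (limma). CSF3, which drives neutrophil production, differed by 0.06 (95% interval -0.10 to 0.23), and IL34, the second ligand of the CSF1 receptor, by -0.01 (95% interval -0.28 to 0.27).

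IL37 was the member that fell. This cytokine of the IL-1 family dampens innate inflammation in human cells. It read 6.85, 6.84 and 6.80 with miR-130a, against 7.27, 7.24 and 7.22 in controls. The values were tight within each arm, and every miR-130a value lay below every control (difference -0.41, SE 0.0468, 95% interval -0.52 to -0.30, 1.33-fold lower, adjusted p = 0.00422, limma). The difference lay between -0.42 and -0.40 with any 1 array left out, at adjusted p = 0.00452 to 0.0412 (limma). IL36A and IL36B, inflammatory members of the same gene cluster, did not pass, at -0.07 (95% interval -0.26 to 0.12) and 0.01 (95% interval -0.16 to 0.18).

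None of the other lymphocyte-type interleukins named next passed. The 4 cytokines grouped here under the common gamma chain (IL2, IL7, IL15 and IL21) had row means of 1.86 to 3.68 and differences of -0.08 to 0.06. The 5 beta common and type 2 cytokines, among them IL4, IL5 and IL13 of allergic responses, differed by -0.09 to 0.00. The 6 genes of the IL-17 family, which mobilise neutrophils, differed by -0.05 to 0.04; IL17C, the epithelial member, had 6.57, 6.67 and 6.54 with miR-130a and 6.47, 6.38 and 6.81 in controls, where the third array again was the highest of the 6. IL16 and IL32 differed by -0.03 and 0.02.

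Members of the IL-10 and IL-12 families came nearest to the threshold among the rest. IL24, which induces death in many tumour lines when overexpressed, read 4.91, 4.98 and 4.95 with miR-130a, against 4.57, 4.63 and 4.79 in controls. The third control was the nearest to the miR-130a arm (difference 0.28, SE 0.067, adjusted p = 0.0615, limma), and without it IL24 passed (difference 0.348, adjusted p = 0.00921, limma). With no array left out, IL24 also passed after a second quantile normalization, after median centring and with array weights (adjusted p = 0.02, 0.0361 and 0.00313, limma). Those fits called 1125, 520 and 3215 of all 22465 genes. IL23A, the p19 chain of IL-23, read 5.78, 5.73 and 5.94 with miR-130a and 5.48, 5.57 and 5.66 in controls (difference 0.25, SE 0.0745, adjusted p = 0.135, limma). IL12A, the p35 chain of IL-12, differed by 0.15 (SE 0.0554, adjusted p = 0.21, limma) and passed without the third control (difference 0.194, adjusted p = 0.0335, limma). IL12B, the chain that both cytokines share, differed by -0.02. The other 5 members of the IL-10 family, IL10 itself included, differed by -0.11 to 0.03.

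**Figure D4:**
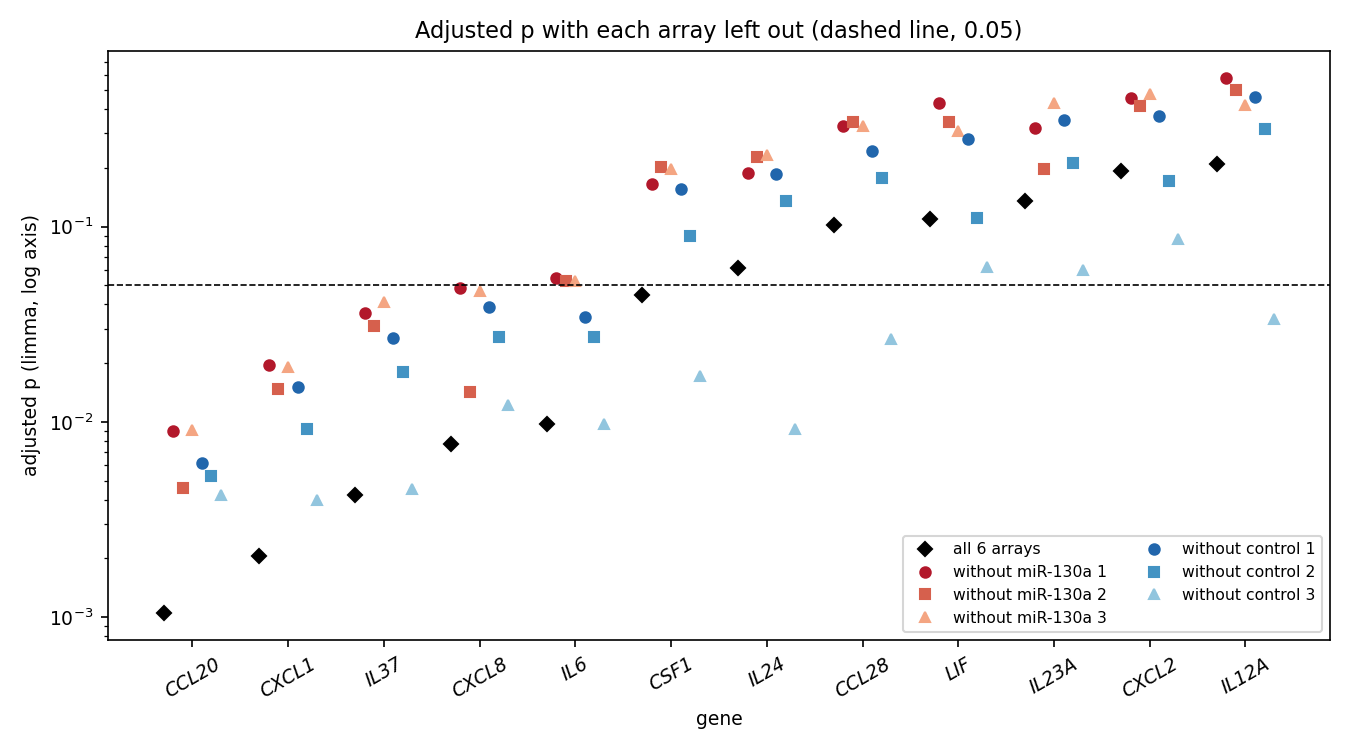
Adjusted p (limma, log axis) of 12 genes in the fit of all 6 arrays (black diamonds) and with each array left out (red, miR-130a arrays; blue, control arrays); the dashed line marks 0.05. CCL20, CXCL1, IL37 and CXCL8 stay below the line throughout, IL6 lies at 0.0547, 0.0527 and 0.0527 without each miR-130a array, and IL24, CCL28 and IL12A fall below it without the third control.

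Of 21 measured chemokine receptors, which read these ligands on target cells, none passed in limma, and none had an unadjusted p below 0.05. The 3 with the smallest p were CXCR4 (difference 0.13, SE 0.0616), CXCR2 (-0.12, SE 0.0657) and CX3CR1 (-0.13, SE 0.0932), at adjusted p = 0.385, 0.465 and 0.605 (limma). With an array left out these differences lay between 0.079 and 0.162, between -0.177 and -0.065, and between -0.22 and -0.046. The receptors of the chemokines that rose, named here after their values were seen, were dim: CCR6 read 3.70 ± 0.02 with miR-130a and 3.65 ± 0.17 in controls, CXCR1 4.38 ± 0.06 with miR-130a and 4.34 ± 0.14 in controls, and CXCR2 4.72 ± 0.02 with miR-130a and 4.83 ± 0.11 in controls (SD, n = 3 each).

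Of 38 interleukin and CSF receptor genes, 3 rose (7.89%, against 2.48% of all genes) and 1 fell (2.63%, against 1.74%), with a median difference of -0.003. Of these 38, 31 lay above the median of all rows, where 3.29% of all genes rose and 2.31% fell. IL6R, the ligand-binding chain for IL-6, read 7.66, 7.72 and 7.66 with miR-130a, against 7.23, 7.14 and 7.27 in controls. The arms were far apart, and the rise passed with any 1 array left out (difference 0.46, SE 0.0552, 1.38-fold, adjusted p = 0.005, limma). IL4R and IL7R rose by 0.26 and 0.27 (adjusted p = 0.0264 and 0.0335, limma). OSMR, the oncostatin M receptor that pairs with gp130, fell by 0.30 (SE 0.0559, adjusted p = 0.0302, limma). IL4R, IL7R and OSMR each passed in 1 of the 6 fits that left out an array, the one without the third control. After median centring IL7R and OSMR did not pass (adjusted p = 0.0976 and 0.133, limma). IL6ST, which encodes gp130, did not pass (8.94 ± 0.05 with miR-130a, 8.85 ± 0.14 in controls; adjusted p = 0.725, limma), nor did LIFR (7.78 ± 0.03 with miR-130a, 7.38 ± 0.20 in controls; adjusted p = 0.0611, limma), both named after their values were seen.

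Of 16 NF-kB subunits and feedback genes, all above the median row, 3 rose (18.8%, against 3.29% of all genes above that row) and none fell, with a median difference of 0.073. TNFAIP3, which encodes the NF-kB inhibitor A20, rose by 0.50 (SE 0.0666, adjusted p = 0.00781, limma), the subunit gene NFKB1 by 0.44 (SE 0.069, adjusted p = 0.0153) and NFKBIA, which encodes the inhibitor I-kappa-B alpha, by 0.31 (SE 0.0503, adjusted p = 0.0179). TNFAIP3 passed in 5 of the 6 fits that left out an array and NFKB1 and NFKBIA in 2. After median centring NFKB1 did not pass (adjusted p = 0.0512, limma). Of 13 genes that bind AU-rich or related elements and regulate decay, 3 rose (23.1%, against 2.48% of all genes) and none fell. Of these 13, 12 lay above the median row, where 3.29% of all genes rose. ZC3H12C, of the regnase family, rose by 0.39 (SE 0.0714, adjusted p = 0.0278, limma). ZFP36, which encodes tristetraprolin and destabilises cytokine messenger RNAs, rose by 0.29 (SE 0.0574, adjusted p = 0.0336, limma). Its relative ZFP36L1 rose by 0.25 (SE 0.0492, adjusted p = 0.0326, limma). ZC3H12C passed in 2 of the 6 fits that left out an array, and ZFP36 and ZFP36L1 in 1 each. None of these 3 passed after median centring (adjusted p = 0.0702 for ZC3H12C, 0.0554 for ZFP36 and 0.0719 for ZFP36L1, limma). With the mean of all its rows, ZFP36L1 differed by 0.171 and did not pass (adjusted p = 0.22, limma). Of 17 STAT, JAK and SOCS genes, all above the median row, 1 rose (5.88%, against 3.29% of all genes above that row) and 16 did not pass. SOCS3, the feedback inhibitor of gp130 signalling, rose by 0.31 (SE 0.0585, adjusted p = 0.0287, limma). SOCS5 differed by -0.25 (adjusted p = 0.0576, limma) and SOCS7 by -0.18 (adjusted p = 0.0848, limma). SOCS3 passed in 2 of those 6 fits and not after median centring (adjusted p = 0.0591, limma).

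**Figure D5:**
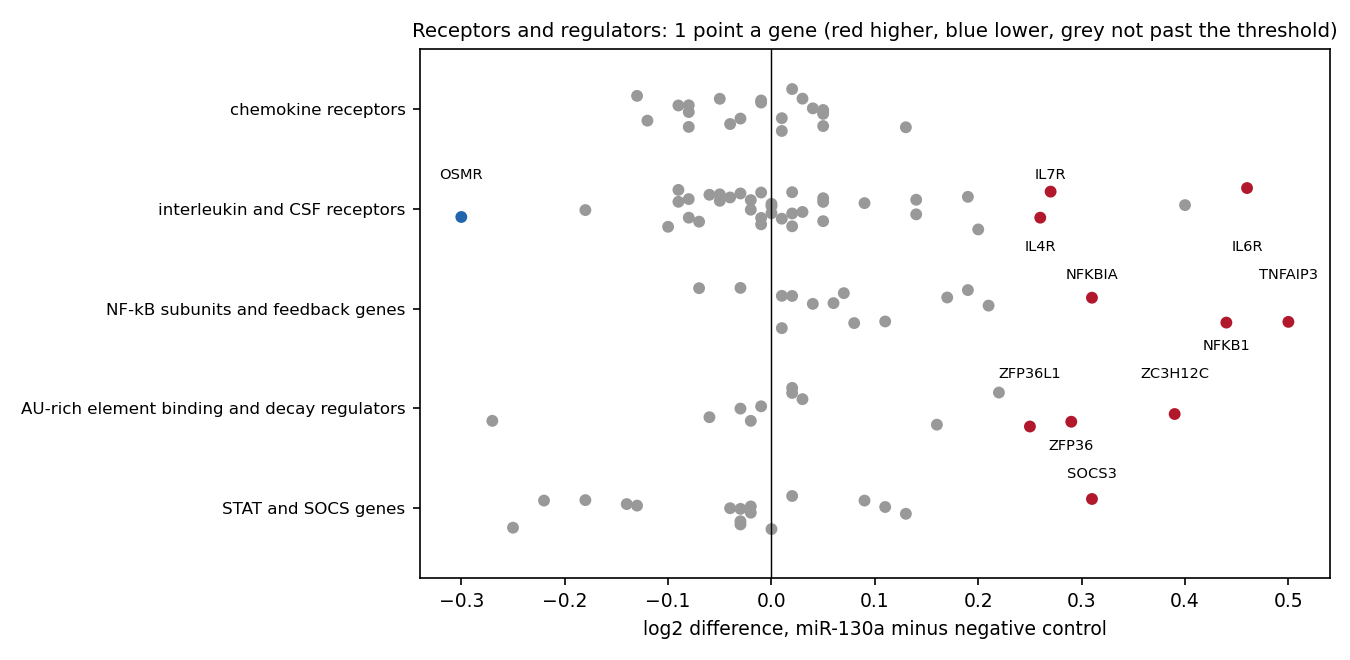
Log2 difference, miR-130a minus negative control, of each measured gene in 5 groups of receptors and regulators (points, spread vertically for legibility); red genes passed upwards, OSMR in blue downwards, and grey genes did not pass. Chemokine receptors lie within -0.13 and 0.13, whereas TNFAIP3, IL6R and NFKB1 lie at 0.50, 0.46 and 0.44.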

How the data were processed

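Per the submitters' processing notes, the authors processed the arrays with RMA in Affymetrix Expression Console, for which no versions or build are given in the sources used here. The deposited table holds 1 value per transcript cluster and array, read here as log2 from its range (0.91 to 14.23). RMA quantile-normalizes the arrays and compresses large differences. Of 70753 rows, 67528 held values and 23781 had 1 platform symbol, brought up to date from RefSeq by Entrez number. The brightest row per gene left 22465 genes. Arms were compared with limma 3.58.1 in R 4.3.3 (lmFit and eBayes, two-sided, Benjamini-Hochberg over all genes, threshold 0.05). A fold is 2 to the power of a log2 difference, the SE is limma's moderated one, and the code was tested on simulated data. The number of arrays limits the precision.

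The members, roles and other lists were chosen with earlier results of these data known. Named were members past the threshold or at an unadjusted p below 0.05, the 15 brightest members, all ELR, gp130 and colony-stimulating members, MIR130A and, in each other list, genes past the threshold and the 3 with the smallest p. Further members and receptors were picked with their values in view. Tried besides were a block for the replicate number, a filter on dim rows, 2 further normalizations, the mean of a gene's rows, trended and robust eBayes, array weights, all rows, a 1.5-fold threshold and leaving out each array.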

Additional observations from a re-analysis of the deposited data

How the results depend on the processing

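CCL20, CXCL1, CXCL8 and IL37 passed in each of the fits run, apart from the 1.5-fold threshold, which kept 1 member (CCL20; 1 higher and 0 lower). IL6 was lost when all rows were tested (adjusted p = 0.0525, limma) and without any miR-130a array. CSF1 was lost with the replicate block (adjusted p = 0.0896, limma), after median centring, with all rows (adjusted p = 0.196) and without any array but the third control. Same-numbered arrays of the arms correlated at -0.0674, 0.0585 and 0.0893 in their deviations from the arm means. Arrays with unlike numbers correlated at -0.148 to 0.159. With 3 arrays per arm, these values cannot decide whether the numbers pair the arrays. With the replicate block 5 members, 818 genes and 8 genes of the other lists passed. IL4R, IL7R, ZFP36 and ZFP36L1 were then lost (adjusted p = 0.0706, 0.0699, 0.0655 and 0.0753, limma). With all rows tested, 3 members were higher, 277 named genes passed (202 higher, 75 lower) and 2 of the other lists. Array weights gave the third control 0.146 and called 12 of the 74 members (10 higher, 2 lower), with CCL28, CXCL2, IL12A, IL23A, IL24 and LIF gained. The same fit called 3215 of all 22465 genes (1430 higher, 1785 lower) and 22 of the other lists, against 11 in the fit reported. Trended and robust eBayes called 1449 genes, 654 lower, and the filter on dim rows 616 lower. Median centring left 520 genes, 136 lower, and 4 of the other lists.

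With 1 array left out, 4 to 9 members passed (5.41% to 12.2%), 3 to 7 higher and 1 to 2 lower. Over all genes 237 to 2252 passed (1.05% to 10.0%), 176 to 1097 higher and 61 to 1155 lower. Of the other lists 1 to 19 genes passed. The highest counts came without the third control, where 12.2% of members and 10.0% of all genes passed. Among genes that did not pass, small differences changed sign: CCL25 was at 0.072 with array weights, IL27 at 0.003 with median centring and 0.004 with array weights, and IL34 at 0.004 after a second quantile normalization, 0.013 with median centring and 0.118 with array weights. Leaving out arrays moved CCL25 between -0.080 and 0.056, CXCL5 between -0.025 and 0.052, IL11 between -0.036 and 0.183, IL17C between -0.048 and 0.164, IL27 between -0.060 and 0.019, IL32 between -0.030 and 0.093 and IL34 between -0.081 and 0.134. The causes were not tested.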
